A study of Danio rerio with 24 samples.

Results

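Wildtype zebrafish larvae raised under 14 h of light and 10 h of darkness with 25 µM perfluorohexane sulfonate (PFHxS) were compared with larvae raised under the same cycle with 0.0025 µM PFHxS, across all genes expressed in whole larvae. The members were the genes with at least 0.5 FPKM (fragments per kilobase of transcript, scaled to a size per library that the authors set) in at least 4 of the 12 light-dark cycle libraries, which left 18917 of the 32520 genes in the table. Each dose had 4 libraries of whole embryos exposed continuously from 0.75 to 120 h post-fertilization in 0.1% DMSO, and 4 vehicle libraries (0 µM, the same DMSO) of the same cycle stood beside them. The study also held the same 3 doses in constant darkness, with 4 libraries each, so that 8 of its 24 libraries belong to the comparison described here. No label gave an allele or a transgene, the number of larvae pooled in a library or whether the libraries of a group came from separate clutches, so p-values measure the spread between these libraries only. The treatment protocol in the labels mentions dark conditions for every sample, whereas the sample titles separate the light-dark cycle from constant darkness, and the titles were followed.

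PFHxS is a per- and polyfluoroalkyl substance, a persistent surfactant with a fully fluorinated carbon chain and a sulfonate head group, which binds serum proteins and accumulates in liver in vertebrates. Compounds of this class are known as ligands of peroxisome proliferator-activated receptors (PPARs), the nuclear receptors that control fatty acid uptake and oxidation, and have been studied for effects on liver proteins, thyroid hormone and lipid metabolism. At this age a zebrafish larva has a working liver, gut, swimming musculature and a retina dominated by cones, while it moves from yolk to feeding, so that transcripts of all these organs are read together from the whole body.

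Sequenced depth, as fragments recovered from the deposited FPKM values, was 11 to 12.8 M (mega) per library at 25 µM and 10.4 to 18.5 M at 0.0025 µM, with 10.1 to 18.2 M in vehicle. The mean depth of the 2 doses did not differ detectably (exact two-sided permutation test, p = 0.971). Correlations of log2 values between libraries of 1 group lay between 0.929 and 0.96, and the leading principal component, with 16.4% of the variance, separated the 25 µM libraries from the rest. Defining markers were present for muscle (ckma, 215.7 to 558.5 FPKM over the 12 libraries), lens (crygm2d13, 1196 to 1598 FPKM), liver (fabp10a, 676 to 1362 FPKM), exocrine pancreas (prss1, 2896 to 5168 FPKM) and neurons (snap25a, 158 to 187 FPKM). The red blood cell markers hbaa1 (0 to 0.477 FPKM) and alas2 (0 to 0.0624 FPKM) were at or near 0. Among the 25 µM libraries, replicates 1 and 4 stood apart in opposite ways. Replicate 1 was the lowest of the 4 for 152 of the 265 genes called higher and the highest for 69 of the 118 genes called lower. Replicate 4 was the highest for 125 of the 265 and the lowest for 70 of the 118. For most lists the count of calls is also given without single libraries.

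At 25 µM, 383 of the 18917 genes (2.02%) differed from 0.0025 µM at an adjusted p below 0.05 (limma on log2(FPKM + 0.1), Benjamini-Hochberg adjustment over all genes tested), and "called" refers to this threshold throughout. Of these, 265 (1.4% of the genes tested) were higher and 118 (0.624%) were lower at 25 µM, and 56 rises and 54 falls were at least 2-fold. All counts by list for this comparison stand beside these shares of 1.4% and 0.624%. The median log2 fold change of all genes was −0.01, and 375 of the called genes were protein coding. At an unadjusted p below 0.05 stood 2881 genes (15.2%), and in 1611 genes (8.52%) the 4 libraries of the 2 doses did not overlap, 942 of them higher (4.98%) and 669 lower (3.54%) at 25 µM. The larger changes comprised genes of vesicle traffic, 2 cytochromes P450 of the CYP2K family, heat shock genes and energy metabolism on the higher side, and secreted liver proteins, complement, cone photoreceptor genes and thyroglobulin on the lower side. The number of calls depended on single libraries: without 25 µM replicate 1 it was 463 higher and 192 lower. Fewer were called without 25 µM replicate 2 (126 and 47) and replicate 3 (121 and 46). Leaving out 0.0025 µM replicates 1, 2 and 4 gave 124 and 44, 137 and 62, and 119 and 41. Leaving out vehicle replicate 1 gave 192 higher and 77 lower genes, although the vehicle libraries enter this comparison only through the estimate of the spread and the filter on low values.

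**Figure D1:**
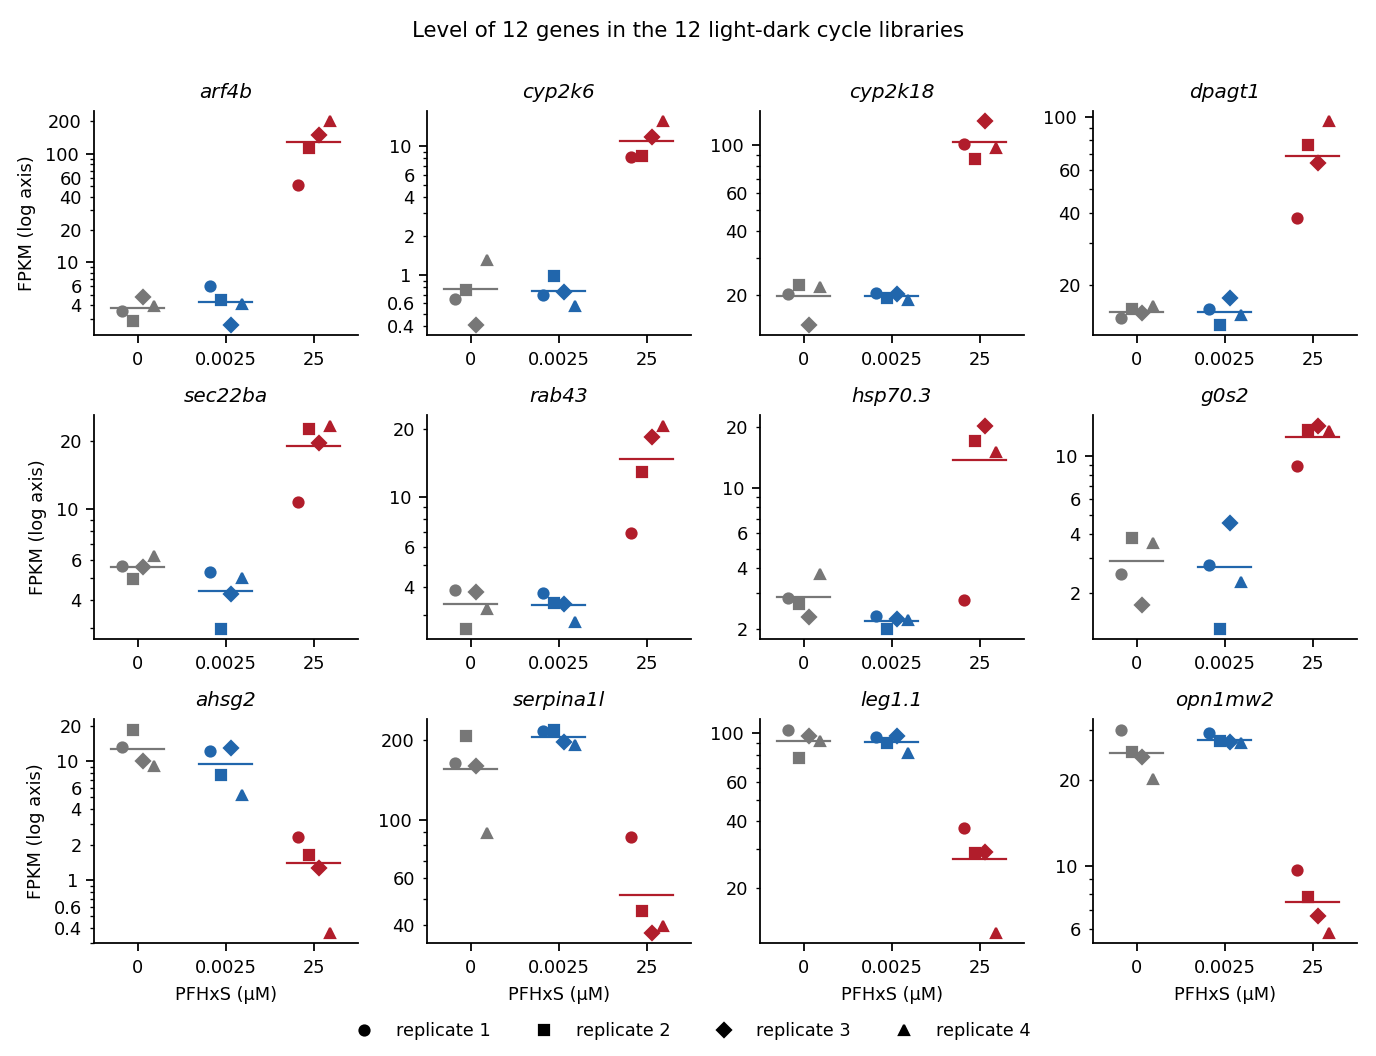
FPKM (log axis) of 12 genes in each of the 12 light-dark cycle libraries at 0, 0.0025 and 25 µM PFHxS; each symbol is a replicate and the horizontal line is the group mean. In 11 of the genes the 4 libraries at 25 µM lie outside the range of the libraries of both other doses, while for hsp70.3 replicate 1 at 25 µM (2.76 FPKM) lies within the range of the vehicle libraries.

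Several of the 15 largest rises were in genes of protein glycosylation in the endoplasmic reticulum and of traffic from there to the Golgi apparatus. arf4b (chromosome 11, 42466834 to 42472941 in the coordinates of the deposited table), a small GTPase of the ADP-ribosylation factor family that acts at the Golgi, had 51.2, 113, 150 and 199 FPKM at 25 µM, against 6.0, 4.47, 2.63 and 4.09 FPKM at 0.0025 µM. For arf4b the log2 fold change was 4.76 ± 0.36 (limma adjusted p = 0.000115). All 4 libraries at 25 µM exceeded every library at 0.0025 µM, with replicate 1 the lowest of them. dpagt1 (chromosome 5, 30588856 to 30595372), which catalyses the committed step of N-linked glycan precursor synthesis, had 37.8, 76.6, 64.1 and 95.7 FPKM at 25 µM, against 15.8, 13.6, 17.6 and 14.9 FPKM at 0.0025 µM. dpagt1 changed by 2.07 ± 0.21 on the log2 scale (limma adjusted p = 0.00093). For sec22ba (chromosome 2, 9970942 to 9983661), a SNARE protein of vesicles between the endoplasmic reticulum and the Golgi, the levels were 10.7, 22.5, 19.6 and 23.4 FPKM in the 25 µM libraries and 5.3, 2.97, 4.25 and 4.98 FPKM in the 0.0025 µM libraries. For sec22ba the log2 fold change was 2.07 ± 0.24 (limma adjusted p = 0.00153). rab43 (chromosome 11, 440305 to 450099), a Rab GTPase of the secretory route, had 6.92, 12.9, 18.5 and 20.7 FPKM at 25 µM, against 3.76, 3.41, 3.36 and 2.8 FPKM at 0.0025 µM. rab43 changed by 2.00 ± 0.28 on the log2 scale (limma adjusted p = 0.00408). In none of these 4 genes did the doses overlap. That was a condition for a place among the 15 largest rises and 15 largest falls. For such genes, here and below, it is therefore no separate support. The calls of these 4 genes held in all 20 alternative settings. Of 80 tested genes in a list of vesicle and Golgi traffic, 6 were called higher (all genes 1.4%) and 0 lower. The other called members were arf4a (log2 fold change 0.84 ± 0.19) and rab2a (0.34 ± 0.07), a GTPase needed for transport from the endoplasmic reticulum. The median log2 fold change of the list was 0.19, against −0.01 over all genes. Without 25 µM replicate 1 the number called was 10. It was 4 without 25 µM replicates 2, 3 or 4, without 0.0025 µM replicates 1, 2 or 4, and with only the 2 doses in the fit. In these fits arf4a and rab2a were not called.

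The stretch of chromosome 11 from arf4b to arf4a was chosen after the values were seen. It holds 5 genes, of which 4 were tested, and all 4 were called higher. Both of its end genes were already called, and genes beyond them were not looked at, so the count is a description. si_ch1073-165f9.2 (42474694 to 42477772), a gene with a placeholder name, had 4.88, 13.8, 14 and 16.9 FPKM at 25 µM, against 1.76, 0.89, 1.81 and 0.916 FPKM at 0.0025 µM (log2 fold change 3.04 ± 0.37). zgc_110286 (42478184 to 42481817), also a placeholder, had 14, 30.1, 30.4 and 41.9 FPKM at 25 µM, against 0.759, 0.161, 0 and 0.268 FPKM at 0.0025 µM, or on average 345 against 3.5 fragments. Its log2 fold change of 6.50 ± 0.55 depends on the added 0.1 FPKM, because the gene was close to 0 at the low dose. The tested copy of arf4a (42494531 to 42502940) had 9.42, 14.1, 15.1 and 16.2 FPKM at 25 µM, against 8.24, 5.24, 9.09 and 7.95 FPKM at 0.0025 µM. For arf4a the log2 fold change was 0.84 ± 0.19 (limma adjusted p = 0.0462). Its call was lost without 25 µM replicates 2, 3 or 4, without 0.0025 µM replicates 1, 2 or 4, and with only the 2 doses in the fit. No library overlapped between the doses in any of the 4 genes. The labels do not state whether fragments were counted by strand, and how fragments were divided between arf4b, arf4a and the untested second entry named arf4a was not tested.

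Among cytochromes P450, the enzymes that oxidise foreign compounds, fatty acids and steroids, 2 genes of the CYP2K cluster on chromosome 3 rose strongly. cyp2k18 (chromosome 3, 12710350 to 12715432) had 101, 86.6, 129 and 97.4 FPKM at 25 µM, against 20.5, 19.4, 20.4 and 19 FPKM at 0.0025 µM. cyp2k18 changed by 2.37 ± 0.14 on the log2 scale (limma adjusted p = 1.62e-05), the smallest adjusted p of the named genes. cyp2k6 (chromosome 3, 12816362 to 12826387) had 8.26, 8.36, 11.8 and 15.5 FPKM at 25 µM, against 0.696, 0.982, 0.731 and 0.572 FPKM at 0.0025 µM. For cyp2k6 the log2 fold change was 3.68 ± 0.30 (limma adjusted p = 0.000153). Groups were far apart in both, and the vehicle libraries averaged 19.8 ± 3.63 FPKM for cyp2k18 and 0.783 ± 0.379 FPKM for cyp2k6 (SD, n = 4). With a pseudocount of 1 FPKM, which damps changes of low genes, the log2 fold change of cyp2k6 was 2.74. The other 5 tested genes of the cluster did not pass the test, with log2 fold changes of 0.48 for cyp2k17, 0.07 for cyp2k19, −0.11 for cyp2k16, −0.22 for cyp2k21 and −0.25 for cyp2k8. The list of 38 tested CYP2 and CYP3 genes held no further call, and its median was 0.11. cyp1a (chromosome 18, 5588068 to 5598958), the cytochrome P450 induced through the aryl hydrocarbon receptor, was lower instead, with 13.3, 13.1, 10.5 and 10.8 FPKM at 25 µM, against 18.7, 18.4, 16.6 and 18.8 FPKM at 0.0025 µM. cyp1a changed by −0.61 ± 0.09 on the log2 scale (limma adjusted p = 0.00661). It was the 1 called gene among 10 tested genes of that receptor's pathway. slco1d1 (chromosome 4, 77389668 to 77432218), an organic anion transporter, rose with 43.7, 48.2, 46.5 and 42.5 FPKM at 25 µM, against 29.6, 33, 29.7 and 31 FPKM at 0.0025 µM. For slco1d1 the log2 fold change was 0.55 ± 0.07 (limma adjusted p = 0.00233). Both were separated between doses. ugt1ab, a glucuronosyltransferase and the other called member of 27 tested pregnane X receptor and conjugation genes, had a log2 fold change of 0.72 ± 0.16, and its call was lost in 11 of the 12 fits that left out 1 library.

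Heat shock proteins are chaperones that keep other proteins folded. Of the 43 tested genes of this list 6 were called higher (all genes 1.4%) and 0 lower (median log2 fold change 0.33). hspb6 (chromosome 15, 37559570 to 37562582), a small heat shock protein known from muscle, had 20.4, 44.5, 37.9 and 58.6 FPKM at 25 µM, against 6.86, 10.4, 10.301 and 9.47 FPKM at 0.0025 µM. hspb6 changed by 2.03 ± 0.26 on the log2 scale (limma adjusted p = 0.00318), with no overlap. The inducible chaperone hsp70.3 (chromosome 3, 26123736 to 26127091) had 2.76, 17, 20.4 and 15 FPKM at 25 µM, against 2.31, 1.99, 2.24 and 2.21 FPKM at 0.0025 µM. For hsp70.3 the log2 fold change was 2.28 ± 0.48 (limma adjusted p = 0.0316). Replicate 1 at 25 µM was barely above the low-dose libraries, whereas the other 3 were several times higher, and without it the log2 fold change was 2.93 (limma adjusted p = 7.17e-06). hsp70.2 also had its lowest 25 µM value in replicate 1, with 2.4, 13.4, 19.4 and 16.2 FPKM at 25 µM, against 2.09, 1.93, 2.83 and 1.66 FPKM at 0.0025 µM. hsp70.2 changed by 2.22 ± 0.50 on the log2 scale (limma adjusted p = 0.0439), and its replicate 1 lay within the low-dose range. hspb11 had 26.8, 78.2, 73.1 and 49.8 FPKM at 25 µM, against 19.8, 18.7, 17.8 and 20.5 FPKM at 0.0025 µM. For hspb11 the log2 fold change was 1.45 ± 0.27 (limma adjusted p = 0.0176), and 1.77 without 25 µM replicate 1. hspd1, the mitochondrial chaperonin, rose by 0.59 ± 0.10 on the log2 scale, and hspb1 by 0.69 ± 0.16. The call of hsp70.3 was lost in 8 of the 12 fits that left out 1 library, with an adjusted p of up to 0.101. Without 25 µM replicate 1 the list held 16 called genes, and it held 2 without 25 µM replicate 2, 25 µM replicate 3 or 0.0025 µM replicate 1, and 3 without 25 µM replicate 4, 0.0025 µM replicates 2 or 4 or vehicle replicate 1. tcap (chromosome 3, 21240594 to 21242460), the titin cap of the muscle Z-disc, had 25.5, 103, 73 and 93.5 FPKM at 25 µM, against 23.8, 15, 11.4 and 17 FPKM at 0.0025 µM. tcap changed by 2.00 ± 0.37 on the log2 scale (limma adjusted p = 0.0169), again with replicate 1 the lowest at 25 µM; without it the log2 fold change was 2.45. In all, 4 of the 12 fits without 1 library lost the call, with an adjusted p of up to 0.0597.

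Hepatocytes secrete most proteins of blood plasma. Of 42 tested hepatocyte genes 17 were called lower and 1 higher at 25 µM (all genes 0.624% and 1.4%). Their median log2 fold change was −0.45, against −0.01 over all genes. ahsg2 (chromosome 2, 10134345 to 10141741), a fetuin of the cystatin superfamily, had 2.3, 1.64, 1.28 and 0.36 FPKM at 25 µM, against 12.1, 7.75, 13 and 5.19 FPKM at 0.0025 µM. For ahsg2 the log2 fold change was −2.82 ± 0.46 (limma adjusted p = 0.00911). serpina1l (chromosome 20, 10538025 to 10541197), related to the protease inhibitor alpha-1 antitrypsin, had 86.4, 45.2, 37.2 and 39.5 FPKM at 25 µM, against 217, 219.8, 198 and 191 FPKM at 0.0025 µM. serpina1l changed by −2.07 ± 0.27 on the log2 scale (limma adjusted p = 0.00346). leg1.1 (chromosome 20, 1412193 to 1421005), a secreted protein of the zebrafish liver, had 37.3, 28.8, 29 and 12.5 FPKM at 25 µM, against 96.1, 90.3, 96.7 and 81.3 FPKM at 0.0025 µM. For leg1.1 the log2 fold change was −1.86 ± 0.26 (limma adjusted p = 0.00385). All 4 libraries at 25 µM were below every library at 0.0025 µM in these 3 genes, as the rule for the 15 largest falls required, with replicate 1 the least reduced. The other fetuins followed. ahsg1 had 4.23, 6.92, 6.16 and 1.86 FPKM at 25 µM, against 11.2, 13.3, 17.2 and 15.4 FPKM at 0.0025 µM. ahsg1 changed by −1.69 ± 0.32 on the log2 scale (limma adjusted p = 0.0196). For fetub the levels were 245, 249, 251 and 145 FPKM at 25 µM, against 401, 467, 469 and 465 FPKM at 0.0025 µM. For fetub the log2 fold change was −1.05 ± 0.16 (limma adjusted p = 0.00628). Doses were fully separated in both. For itih3b, a heavy chain of the inter-alpha-trypsin inhibitor of blood, the levels were 14.4, 12.9, 16.1 and 13.4 FPKM in the 25 µM libraries and 26.2, 32.8, 26.4 and 27.8 FPKM in the 0.0025 µM libraries. itih3b changed by −0.99 ± 0.12 on the log2 scale (limma adjusted p = 0.00254). The log2 fold change was −1.27 for ceruloplasmin (cp), the copper carrier, −1.14 for itih3a, −0.92 for serpina1, −0.82 for urate oxidase (uox), −0.78 for haptoglobin (hp), −0.77 for the vitamin D binding protein (gc) and −0.58 for plasminogen (plg). Not every liver gene was lower: tdo2b, which opens the breakdown of tryptophan, rose with 22.5, 25.3, 26.4 and 31.6 FPKM at 25 µM, against 15.8, 14.2, 14 and 16.6 FPKM at 0.0025 µM (log2 fold change 0.79 ± 0.17). Its call was lost without 25 µM replicates 2 or 3 and without any of the 0.0025 µM libraries. It was also lost with no filter on low values and with the replicate number as a block. fabp10a, the abundant fatty acid binding protein of the larval liver, had 1362, 1094, 1333 and 869 FPKM at 25 µM, against 803, 689.6, 842 and 864 FPKM at 0.0025 µM. It did not pass the test (log2 fold change 0.52 ± 0.13, limma adjusted p = 0.0683). Its doses did not overlap, though 869 FPKM at 25 µM was just above 864 FPKM at 0.0025 µM. fabp10a was called higher in 2 alternative settings, limma-voom on recovered fragments and values scaled to total fragments. Summed FPKM over the list was 3016 to 4120 at 25 µM and 4084 to 4347 at 0.0025 µM. Since the libraries are of whole larvae, fewer hepatocytes and less RNA of these genes per hepatocyte cannot be told apart. The number of lower calls was 18 without 25 µM replicate 1, 7 and 9 without 25 µM replicates 2 and 3, and 8, 7 and 6 without 0.0025 µM replicates 1, 2 and 4; with the replicate number as a block it was 9.

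The tyrosine breakdown enzyme tat (chromosome 18, 13162728 to 13179510), which glucocorticoids induce in liver, was also lower, with 3.47, 4.04, 6.63 and 7.0 FPKM at 25 µM, against 12.6, 17.1, 9.47 and 20.1 FPKM at 0.0025 µM. For tat the log2 fold change was −1.47 ± 0.31 (limma adjusted p = 0.0327). No library overlapped, but the call was lost in 7 of the 12 fits that left out 1 library, with an adjusted p of up to 0.101. pklr, the pyruvate kinase of liver and red blood cells, had 123, 122, 142 and 75.9 FPKM at 25 µM, against 218, 192, 198 and 170.2 FPKM at 0.0025 µM. pklr changed by −0.78 ± 0.17 on the log2 scale (limma adjusted p = 0.0375). Its call was lost without vehicle replicates 1 or 3, without 25 µM replicate 2 and without any of the 0.0025 µM libraries. It was also lost with no filter on low values and with only the 2 doses in the fit. apom, a lipocalin carried on lipoproteins, had 105, 104, 80.7 and 79.7 FPKM at 25 µM, against 144, 141, 168 and 176 FPKM at 0.0025 µM. For apom the log2 fold change was −0.78 ± 0.11 (limma adjusted p = 0.0048). Together with apoda.1 (−1.17 ± 0.24) apom made the 2 lower calls among 26 tested apolipoproteins, whose median was −0.03, and the call of apoda.1 was lost in 6 of the 12 fits without 1 library. In pklr and apom every 25 µM library was below every 0.0025 µM library.

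Complement, the cascade of blood proteins that opsonises and lyses microbes, and the acute phase proteins were read as 1 list. Of its 33 tested genes 6 were called lower (all genes 0.624%) and 0 higher, with a median log2 fold change of −0.50. c9 (chromosome 5, 32345187 to 32355289), the pore-forming last component, had 79.7, 59.07, 77.5 and 73.7 FPKM at 25 µM, against 139, 153, 139 and 153 FPKM at 0.0025 µM. c9 changed by −1.02 ± 0.09 on the log2 scale (limma adjusted p = 0.000315), and no library overlapped. c8b, another subunit of the membrane attack complex, had 9.12, 7.75, 7.4 and 5.49 FPKM at 25 µM, against 12, 14.1, 14.1 and 12.5 FPKM at 0.0025 µM. For c8b the log2 fold change was −0.84 ± 0.14 (limma adjusted p = 0.0106). C-reactive protein 3 (crp3), an acute phase pentraxin, had 55.3, 23.6, 34.8 and 32.9 FPKM at 25 µM, against 93.7, 89.7, 63.9 and 74.7 FPKM at 0.0025 µM. crp3 changed by −1.19 ± 0.23 on the log2 scale (limma adjusted p = 0.0244). Further calls were c3a.2 (−1.1), a form of the central component C3, c8a (−0.65) and hp, the last of which the hepatocyte list also holds. The list's summed FPKM was 347 to 510 at 25 µM and 617 to 734 at 0.0025 µM. Only 2 members were called without 25 µM replicates 2 or 3 and without 0.0025 µM replicates 1 or 2, 3 without 0.0025 µM replicate 4, and 2 with the replicate block. Among 21 tested coagulation genes, serpind1 (−0.78), the heparin cofactor, and plg were called lower and 0 were called higher. Leaving out 1 library gave 0 to 4 lower calls, with 4 without 25 µM replicate 1 and 0 without 25 µM replicates 2 or 3 or 0.0025 µM replicates 1, 2 or 4.

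The 15 largest falls also held genes outside the liver lists, which are set together here after their values were seen. Doses that do not overlap were a condition for a place among these falls. ponzr10 (chromosome 10, 22088465 to 22095505) had 1.32, 0.57, 0.482 and 0.465 FPKM at 25 µM, against 4.6, 3.23, 1.89 and 3.27 FPKM at 0.0025 µM. For ponzr10 the log2 fold change was −2.10 ± 0.32 (limma adjusted p = 0.00709). defbl1, a beta-defensin-like antimicrobial peptide, had 45.8, 30, 21.5 and 15.2 FPKM at 25 µM, against 72.2, 62.8, 85.6 and 62.4 FPKM at 0.0025 µM. defbl1 changed by −1.43 ± 0.26 on the log2 scale (limma adjusted p = 0.0169). In both genes every 25 µM library was below the low-dose libraries. cd74b, an invariant chain of MHC class II, the molecule that presents peptides to helper T cells, had 5.23, 4.91, 6.23 and 4.43 FPKM at 25 µM, against 17.9, 13.6, 16.1 and 12.8 FPKM at 0.0025 µM. For cd74b the log2 fold change was −1.52 ± 0.31 (limma adjusted p = 0.0272). The chemokine ccl36.1 had 1.61, 1.93, 0.714 and 1.08 FPKM at 25 µM, against 5.94, 2.62, 5.06 and 3.79 FPKM at 0.0025 µM. ccl36.1 changed by −1.65 ± 0.33 on the log2 scale (limma adjusted p = 0.0252). Doses did not overlap in cd74b and ccl36.1 either, but in the 12 fits without 1 library the call of cd74b was lost 7 times, that of ccl36.1 5 times and that of defbl1 2 times. vwa10.1 and cbln8, a cerebellin family gene, were also among the largest falls, with log2 fold changes of −1.53 ± 0.28 and −1.92 ± 0.45, and the call of cbln8 was lost 10 times of 12. The list of 70 tested inflammation and chemokine genes had 0 calls by limma (7 at an unadjusted p below 0.05, and 0 by limma-voom on recovered fragments), with a median of −0.23. The called genes defbl1, cd74b and ccl36.1 were therefore not among its tested members. Nor were cd74a and pycard, called lower and given under the other observations. The macrophage marker mpeg1.1 was low throughout, at 0.18 to 1.975 FPKM over the 12 libraries.

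**Figure D2:**
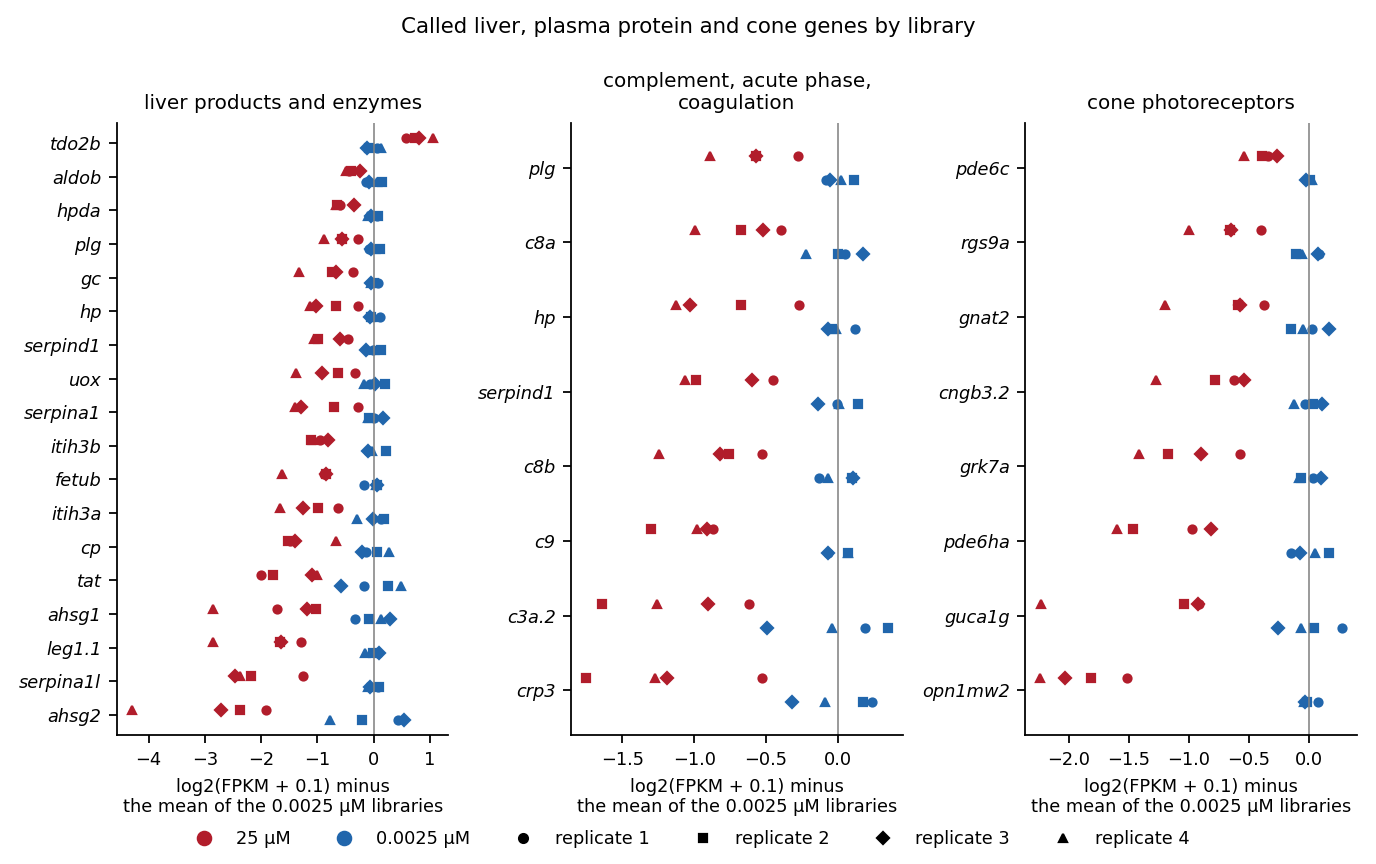
Change of each called gene of the hepatocyte list, of the complement, acute phase and coagulation lists and of the cone list, in each library: log2(FPKM + 0.1) minus the mean of the 4 libraries at 0.0025 µM, with red points for 25 µM and blue points for 0.0025 µM. Nearly all red points lie left of the blue ones; tdo2b lies to the right, and ahsg2 has the largest fall (log2 fold change −2.82).

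Cone photoreceptors detect colour in bright light, and 8 of 35 tested cone genes were called lower and 0 higher (median log2 fold change −0.42). Over all genes 0.624% were called lower. In 17 of the 35 the 25 µM libraries were all below the 0.0025 µM libraries, against 3.54% of all genes. opn1mw2 (chromosome 6, 41186320 to 41189460), 1 of the tandem green-sensitive opsins, had 9.66, 7.81, 6.69 and 5.81 FPKM at 25 µM, against 29.3, 27.5, 27.18 and 27 FPKM at 0.0025 µM. For opn1mw2 the log2 fold change was −1.90 ± 0.15 (limma adjusted p = 0.000119). Vehicle averaged 25 ± 4.11 FPKM (SD, n = 4). The 4 low-dose libraries lay within a narrow range, and every 25 µM library was far below it. The other tested cone opsins did not pass the test: the log2 fold change was −0.42 for opn1mw1, −0.35 for the red-sensitive opn1lw2, −0.25 for the blue-sensitive opn1sw2 and −0.19 for the ultraviolet-sensitive opn1sw1. opn1lw2 overlapped widely between doses, with 117, 159.8, 197 and 67.9 FPKM at 25 µM, against 227, 63.1, 192 and 242 FPKM at 0.0025 µM. The other calls were enzymes and channels of the cone light response. pde6ha, the inhibitory subunit of the cone phosphodiesterase, had 9.7, 6.88, 10.9 and 6.24 FPKM at 25 µM, against 17.2, 21.5, 18.2 and 19.8 FPKM at 0.0025 µM. pde6ha changed by −1.21 ± 0.16 on the log2 scale (limma adjusted p = 0.00366). grk7a, the cone opsin kinase, had 6.95, 4.56, 5.52 and 3.83 FPKM at 25 µM, against 10.6, 9.96, 11.2 and 9.84 FPKM at 0.0025 µM. For grk7a the log2 fold change was −1.01 ± 0.18 (limma adjusted p = 0.0127). guca1g, a calcium sensor of guanylate cyclase, had 8.09, 7.41, 8.05 and 3.19 FPKM at 25 µM, against 18.6, 15.9, 12.8 and 14.7 FPKM at 0.0025 µM. guca1g changed by −1.28 ± 0.25 on the log2 scale (limma adjusted p = 0.0248), and its call was lost without 0.0025 µM replicates 1, 2 or 4. cngb3.2, a cone channel subunit, had a log2 fold change of −0.80, the cone transducin gnat2 −0.68, the regulator of its GTPase rgs9a −0.67 and the catalytic phosphodiesterase subunit pde6c −0.38. Summed FPKM over the list was 1512 to 2318 at 25 µM and 2256 to 2716 at 0.0025 µM, so the sums overlapped. Without 0.0025 µM replicates 1 and 4 the list held 4 called genes, without its replicate 2 and without 25 µM replicates 2 and 3 it held 5, and with only the 2 doses in the fit it held 3.

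Other eye genes gave no such counts. Of 50 tested rod and visual cycle genes limma called 0 (7 at an unadjusted p below 0.05; limma-voom called 1 lower), with a median of −0.11, and of 37 lens crystallins it called 0 (1 at an unadjusted p below 0.05; 0 by limma-voom), with a median of −0.07. Among 35 tested pigment cell genes, gch2 (chromosome 12, 25085751 to 25092570), the GTP cyclohydrolase that starts pteridine pigment synthesis, had 15.8, 19.5, 20.8 and 16.6 FPKM at 25 µM, against 7.98, 4.73, 7.18 and 9.97 FPKM at 0.0025 µM. For gch2 the log2 fold change was 1.31 ± 0.20 (limma adjusted p = 0.00675). sprb, a sepiapterin reductase of the same pathway, moved the other way, with 0.356, 0.334, 0.225 and 0.163 FPKM at 25 µM, against 0.983, 1.85, 1.76 and 1.42 FPKM at 0.0025 µM. sprb changed by −2.12 ± 0.32 on the log2 scale (limma adjusted p = 0.00627). With a pseudocount of 1 FPKM its log2 fold change was −0.97. In both genes the doses were apart. tyrp1b, an enzyme of melanin synthesis, had a log2 fold change of 0.50 ± 0.10, with the call lost in 5 of the 12 fits without 1 library.

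Of 32 tested genes of glycolysis, the breakdown of glucose to pyruvate and lactate, 12 were called higher at 25 µM and 1, pklr, lower (all genes 1.4% and 0.624%). The list had a median log2 fold change of 0.28. aldoaa (chromosome 3, 39566999 to 39577052), the muscle aldolase, had 735, 770, 832 and 1284 FPKM at 25 µM, against 310.1, 296, 396 and 299 FPKM at 0.0025 µM. For aldoaa the log2 fold change was 1.45 ± 0.16 (limma adjusted p = 0.0015). pfkma (chromosome 23, 27553786 to 27571667), a muscle phosphofructokinase, the committed step of the pathway, had 85.9, 82.1, 99.7 and 113 FPKM at 25 µM, against 47.3, 41.6, 53.3 and 40 FPKM at 0.0025 µM. pfkma changed by 1.06 ± 0.12 on the log2 scale (limma adjusted p = 0.00153). The lactate dehydrogenases rose as well. ldha (chromosome 25, 25123385 to 25131755) had 206, 189, 201 and 225 FPKM at 25 µM, against 101, 105, 122 and 105 FPKM at 0.0025 µM. For ldha the log2 fold change was 0.93 ± 0.08 (limma adjusted p = 0.000167). ldhbb had 39.8, 41.6, 48.3 and 37.9 FPKM at 25 µM, against 18.5, 20.6, 20.7 and 20.4 FPKM at 0.0025 µM. ldhbb changed by 1.06 ± 0.11 on the log2 scale (limma adjusted p = 0.0011). pgam2, the muscle phosphoglycerate mutase, had 177, 183, 191 and 209.8 FPKM at 25 µM, against 96.2, 86.2, 112 and 96.5 FPKM at 0.0025 µM. For pgam2 the log2 fold change was 0.96 ± 0.10 (limma adjusted p = 0.0011). In all 5 the 2 doses were fully separated, and each call held in all 20 alternative settings. Smaller rises were called for tpi1b (0.69), pgk1 (0.54), aldocb (0.53), pfkpa (0.46), pkmb (0.42), gpia (0.32) and eno3 (0.31). Summed FPKM over the list was 5349 to 5985 at 25 µM and 3810 to 4419 at 0.0025 µM, with no overlap. Leaving out 1 library gave 9 to 13 higher calls and 0 to 1 lower calls.

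Of 48 tested genes of insulin, glucose and gluconeogenesis, 7 were called higher and 0 lower (median 0.12). gys1, the glycogen synthase of muscle, had 31.8, 32.9, 33.3 and 38.6 FPKM at 25 µM, against 19.7, 21.5, 21.3 and 20.1 FPKM at 0.0025 µM. gys1 changed by 0.72 ± 0.08 on the log2 scale (limma adjusted p = 0.00119), and no library overlapped. pygma, the muscle glycogen phosphorylase, rose by 0.73 ± 0.15, fbp2, a fructose bisphosphatase, by 0.71 ± 0.13, and the glucose transporter slc2a3a by 0.61 ± 0.11 on the log2 scale. pck1, the entry enzyme of gluconeogenesis, had a log2 fold change of 0.76 ± 0.17, and its call was lost in 8 of the 12 fits without 1 library. Without 25 µM replicate 3 or 0.0025 µM replicate 1 the list held 4 called genes. The 83 tested genes of muscle and sarcomere themselves had a median of 0.01, with tcap, pygma and eno3 called higher and mybpc2b (−0.62), a fast muscle myosin binding protein, called lower. Beside shares over all genes of 1.4% called higher and 0.624% lower, these few calls are no result about muscle genes as a set. The number called higher was 0 without 25 µM replicates 2 or 3 or 0.0025 µM replicates 2 or 4, 1 without 0.0025 µM replicate 1, with the replicate block or with only the 2 doses in the fit, and 5 without 25 µM replicate 1. The call of mybpc2b was lost in 4 of the 12 fits without 1 library.

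Subunits of the mitochondrial respiratory chain pass electrons to oxygen and drive ATP synthesis. Of 74 tested nuclear genes of the chain 12 were called higher (all genes 1.4%), 0 were called lower and the other 62 did not pass the test. Their median log2 fold change was 0.31, and 69 values were above 0, while 48.1% of all genes were. cycsb (chromosome 6, 10910589 to 10912424), a cytochrome c, had 332, 322, 359 and 374 FPKM at 25 µM, against 185, 137, 221 and 177 FPKM at 0.0025 µM. For cycsb the log2 fold change was 0.96 ± 0.15 (limma adjusted p = 0.00911). ndufb6 of complex I had 82, 81.6, 82.6 and 79.1 FPKM at 25 µM, against 55.6, 54.3, 66.1 and 50 FPKM at 0.0025 µM. ndufb6 changed by 0.53 ± 0.08 on the log2 scale (limma adjusted p = 0.00792). sdha, the catalytic subunit of succinate dehydrogenase, had 136, 140.2, 160.2 and 150.3 FPKM at 25 µM, against 104, 98.8, 118 and 101 FPKM at 0.0025 µM. For sdha the log2 fold change was 0.48 ± 0.08 (limma adjusted p = 0.00911). cyc1 of complex III had 171, 192, 197 and 188 FPKM at 25 µM, against 133, 121, 155 and 127 FPKM at 0.0025 µM. cyc1 changed by 0.49 ± 0.08 on the log2 scale (limma adjusted p = 0.0103). Doses did not overlap in these 4 genes, and the calls held in all 20 alternative settings. The other 8 calls had log2 fold changes between 0.34 and 0.55 and included uqcrc2b (0.55) and uqcrfs1 (0.50) of complex III, sdhdb (0.52) of complex II, and ndufv2 (0.43), ndufs3 (0.38), ndufv1 (0.38) and ndufa9a (0.34) of complex I. Summed FPKM over the list was 10995 to 12573 at 25 µM and 8564 to 11380 at 0.0025 µM, where the groups overlapped. The list held 21 called genes without 0.0025 µM replicate 3 and 23 with values scaled to total fragments. Without 0.0025 µM replicates 1, 2 and 4 it held 6, 7 and 5, without 25 µM replicates 2 and 3 it held 7 and 6, and with the replicate block 7.

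Genes encoded by the mitochondrial genome took 5.89 ± 0.0881% of all fragments at 25 µM and 5.23 ± 0.105% at 0.0025 µM (SD, n = 4 each), and the shares did not overlap (exact two-sided permutation test, p = 0.0286, the smallest that 4 against 4 allows). Vehicle had 5.15 ± 0.224%. Of the 13 tested genes, 0 were called by limma (6 at an unadjusted p below 0.05, 0 by limma-voom), all had a positive log2 fold change, and the median was 0.23. With values scaled to total fragments, 5 were called. Further mitochondrial lists were put together after values of these genes had been seen and are given as a description. Of 23 tested citric acid cycle genes 6 were called higher, among them the malate dehydrogenase mdh1ab (0.64), a cytosolic form, and dlat (0.52) of pyruvate dehydrogenase; citrate synthase (cs) had 0.38. Of 67 mitochondrial ribosomal proteins 6 were called higher (median 0.27), led by mrpl14 (0.73) and mrpl35 (0.54). Of 45 mitochondrial proteases, chaperones and translation factors 15 were called higher (median 0.39). lonp1, the matrix protease, had 9.53, 12, 11.8 and 11.9 FPKM at 25 µM, against 6.49, 5.9, 6.42 and 6.54 FPKM at 0.0025 µM. For lonp1 the log2 fold change was 0.82 ± 0.10 (limma adjusted p = 0.00233). yme1l1a, an inner membrane protease, had a log2 fold change of 0.79 ± 0.11, the initiation factor mtif2 1.09 ± 0.24 and the elongation factor gfm1 0.72 ± 0.12. None of these 4 lists, which include 24 import translocases with 2 calls, had a member called lower. Cytosolic ribosomal proteins gave 0 calls of 76 tested (0 at an unadjusted p below 0.05, 0 by limma-voom), with a median of −0.09.

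Genes of fatty acid handling were higher in part. Of 38 tested PPAR receptors and targets 6 were called higher (all genes 1.4%) and 0 lower (median 0.28). The receptor pparaa itself had a log2 fold change of −0.15 and was not called. fabp3 (chromosome 19, 42955280 to 42993306), the fatty acid binding protein of muscle, had 222, 259, 290.5 and 249.5 FPKM at 25 µM, against 154, 150.2, 198 and 176 FPKM at 0.0025 µM. fabp3 changed by 0.59 ± 0.10 on the log2 scale (limma adjusted p = 0.0117). ucp3, an uncoupling protein of the inner mitochondrial membrane, had 37.2, 55.8, 56.3 and 78.8 FPKM at 25 µM, against 30.9, 22.9, 22.5 and 28.5 FPKM at 0.0025 µM. For ucp3 the log2 fold change was 1.08 ± 0.22 (limma adjusted p = 0.0271). In both genes every 25 µM library was above the low-dose libraries. cpt1b, the gate of fatty acid entry into muscle mitochondria, rose by 0.56 ± 0.11 and ucp2 by 0.54 ± 0.11 on the log2 scale. hmgcs1, an enzyme of cholesterol synthesis, rose by 0.52 ± 0.12, and the call was lost in 10 of the 12 fits without 1 library. The list held 1 called gene without 25 µM replicate 2, 2 without 25 µM replicate 3 and without 0.0025 µM replicates 1 and 4, and 3 without 0.0025 µM replicate 2. Of 37 tested genes of beta-oxidation 5 were called higher and 0 lower (median 0.22). acadvl (chromosome 7, 20298333 to 20333524), which starts the oxidation of very long chains, had 98, 115, 122 and 119 FPKM at 25 µM, against 72.4, 66.3, 77.4 and 74.7 FPKM at 0.0025 µM. acadvl changed by 0.64 ± 0.08 on the log2 scale (limma adjusted p = 0.00254). abcd3a, a peroxisomal acyl-CoA transporter, had 19.1, 14.8, 19.7 and 10.9 FPKM at 25 µM, against 7.32, 3.59, 7.58 and 7.12 FPKM at 0.0025 µM. For abcd3a the log2 fold change was 1.34 ± 0.24 (limma adjusted p = 0.016), and its call was lost without 25 µM replicate 3 (adjusted p = 0.0581). The remaining calls were hadhb (0.46), etfdh (0.41) and etfb (0.37). Of the list, 3 members were called without 25 µM replicate 2, 1 without 25 µM replicate 3 and 2 without each of 0.0025 µM replicates 1, 2 and 4.

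g0s2 (chromosome 23, 39606108 to 39607679), known in mammals as an inhibitor of triglyceride lipase, was among the 15 largest rises with 8.88, 13.5, 14.3 and 13.4 FPKM at 25 µM, against 2.77, 1.3, 4.53 and 2.28 FPKM at 0.0025 µM. g0s2 changed by 2.27 ± 0.33 on the log2 scale (limma adjusted p = 0.00597). Every 25 µM library was above the low-dose libraries, with replicate 1 the lowest. In the list of lipogenesis and lipid droplets, 4 of 29 tested genes were called higher and 0 lower (median 0.21). me1, the malic enzyme that supplies NADPH, had 13.8, 15.9, 14.8 and 13.3 FPKM at 25 µM, against 6.61, 6.35, 7.91 and 6.21 FPKM at 0.0025 µM. For me1 the log2 fold change was 1.09 ± 0.15 (limma adjusted p = 0.00398). plin6, a fish perilipin that coats lipid droplets, had 2.56, 2.18, 2.06 and 2.06 FPKM at 25 µM, against 0.591, 0.351, 0.732 and 1.26 FPKM at 0.0025 µM. plin6 changed by 1.58 ± 0.30 on the log2 scale (limma adjusted p = 0.0208). scd (chromosome 12, 48390715 to 48404672), the stearoyl-CoA desaturase, had 1.2, 3.0, 4.39 and 8.62 FPKM at 25 µM, against 0.781, 0.441, 0.741 and 0.508 FPKM at 0.0025 µM. For scd the log2 fold change was 2.33 ± 0.50 (limma adjusted p = 0.0335). The 25 µM libraries ranged widely, and the call was lost in 7 of the 12 fits without 1 library, with an adjusted p of up to 0.104. pnpla3, a lipid droplet hydrolase, had a log2 fold change of 0.48 ± 0.10. Without 25 µM replicates 2 or 3 or 0.0025 µM replicate 1 the list held 1 called gene, and 2 without 25 µM replicate 4 or 0.0025 µM replicate 4. Of 18 tested bile acid genes abcb11a, a bile salt export pump, was called (0.85 ± 0.18), with the call lost in 5 of the 12 fits without 1 library. Of 23 cholesterol synthesis genes hmgcs1 was called.

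**Figure D3:**
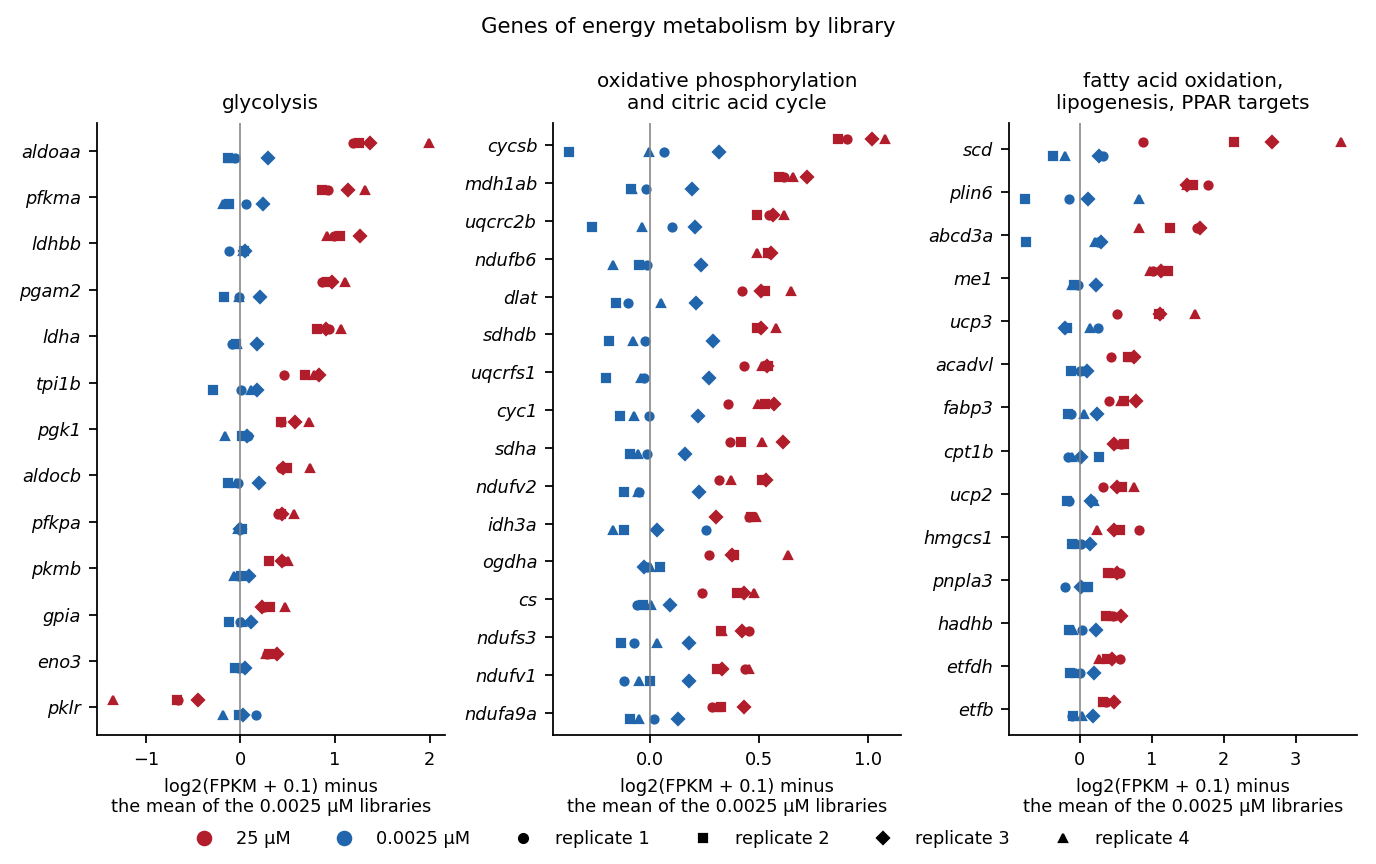
Change of called genes of glycolysis, of the respiratory chain and citric acid cycle, and of fatty acid oxidation, lipogenesis and PPAR targets, in each library: log2(FPKM + 0.1) minus the mean of the 4 libraries at 0.0025 µM, with red points for 25 µM and blue points for 0.0025 µM. Red points lie right of the blue ones for all genes shown but pklr (log2 fold change −0.78), and scd has the widest spread at 25 µM (1.2 to 8.62 FPKM).

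NRF2 is the transcription factor that raises enzymes against oxidants, and 8 of 52 tested genes of its targets and of redox control were called higher and 0 lower (median 0.25). prdx1, a peroxiredoxin, averaged 16.9 ± 0.462 FPKM at 25 µM and 9.04 ± 1.47 FPKM at 0.0025 µM (SD, n = 4 each). prdx1 changed by 0.91 ± 0.15 on the log2 scale (limma adjusted p = 0.00911). txnrd3, a thioredoxin reductase, had 44.7, 45.4, 49.9 and 52.3 FPKM at 25 µM, against 32.3, 30.3, 32.6 and 33 FPKM at 0.0025 µM. For txnrd3 the log2 fold change was 0.58 ± 0.08 (limma adjusted p = 0.00346). Doses were separated in both. The autophagy receptor sqstm1 had 35.9, 93.7, 129 and 106 FPKM at 25 µM, against 30.6, 31.3, 34.2 and 30.4 FPKM at 0.0025 µM. sqstm1 changed by 1.38 ± 0.29 on the log2 scale (limma adjusted p = 0.0331), and its replicate 1 at 25 µM was just above the low-dose libraries. gclm (0.77) and gclc (0.41), the subunits of the enzyme that limits glutathione synthesis, taldo1 (0.44) of the pentose phosphate pathway, me1 and ucp2 completed the calls. The list held 5 called genes without 25 µM replicate 2, 25 µM replicate 3 or 0.0025 µM replicate 2, and 4 without 0.0025 µM replicate 1. Of 50 tested proteasome subunits 3 were called higher, psmc1b (0.61), psmb7 (0.53) and psmd8 (0.41), with a median of 0.31. The count was 13 without 25 µM replicate 1, 14 without 0.0025 µM replicate 3, 9 with limma-voom, 6 with a stricter filter on low values, 1 without 25 µM replicate 3 or with only the 2 doses in the fit, and 0 without any of 25 µM replicates 2 and 4 or 0.0025 µM replicates 1, 2 and 4. Without 25 µM replicate 4 there were 2 lower calls. The 52 tested genes of endoplasmic reticulum stress gave 0 calls (8 at an unadjusted p below 0.05, 0 by limma-voom), with a median of 0.16, and the count was 2 without 25 µM replicate 1. Of 35 genes of the integrated stress response and amino acids, cth (0.47), an enzyme of cysteine synthesis, was called, with a list median of 0.27. The count was 6 without 25 µM replicate 1. It was 0 without 25 µM replicates 2, 3 or 4, any 0.0025 µM library or vehicle replicate 1, and with the replicate block. In 8 of the 12 fits without 1 library the call of cth was lost.

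Several hormone and neuropeptide genes were higher, while thyroglobulin was lower. Of 48 tested pituitary hormones and neuropeptides 7 were called higher and 0 lower, with a median of 0.41. crhb (chromosome 24, 24847683 to 24881996), corticotropin-releasing hormone, which starts the stress axis, had 11.5, 11.2, 15.2 and 20.1 FPKM at 25 µM, against 4.78, 4.97, 6.81 and 6.35 FPKM at 0.0025 µM. For crhb the log2 fold change was 1.3 ± 0.18 (limma adjusted p = 0.0039). vip, the vasoactive intestinal peptide, had 28.1, 32.3, 34.3 and 37.5 FPKM at 25 µM, against 20.7, 16.3, 21.5 and 19.6 FPKM at 0.0025 µM. vip changed by 0.76 ± 0.10 on the log2 scale (limma adjusted p = 0.00385). prl2 (chromosome 4, 14343706 to 14348811), of the prolactin family, had 1.98, 2.81, 2.45 and 3.86 FPKM at 25 µM, against 0.381, 0.269, 0.96 and 0.0894 FPKM at 0.0025 µM. For prl2 the log2 fold change was 2.69 ± 0.46 (limma adjusted p = 0.0119), or 1.42 with a pseudocount of 1 FPKM, since its level was low. Doses did not overlap in these 3 genes. pyya, a peptide YY, rose by 1.03 ± 0.24, urotensin uts1 by 0.91 ± 0.21, somatostatin sst1.1 by 0.74 ± 0.13 and tachykinin tac1 by 0.71 ± 0.16 on the log2 scale. The list held 14 called genes without 25 µM replicate 1, and 4 without each of the other 25 µM libraries, each 0.0025 µM library and vehicle replicates 1 and 2. Of 24 tested genes of the glucocorticoid axis, crhb, its binding protein crhbp (0.70 ± 0.13) and pck1 were called higher and tat lower, with a median of 0.41. The number called higher was 1 without 25 µM replicates 2 or 3 or 0.0025 µM replicates 1 or 2, and with only the 2 doses in the fit. tg (chromosome 16, 31530762 to 31598771), thyroglobulin, the protein on which thyroid hormone is made, had 1.52, 0.799, 1.58 and 1.23 FPKM at 25 µM, against 3.43, 4.16, 3.68 and 2.92 FPKM at 0.0025 µM. tg changed by −1.43 ± 0.21 on the log2 scale (limma adjusted p = 0.00591), with no overlap. It was the 1 call among 19 tested thyroid genes. INHBC (chromosome 6, 59557501 to 59563597), an inhibin beta subunit, had 7.48, 4.7, 6.34 and 8.73 FPKM at 25 µM, against 1.38, 1.14, 3.72 and 1.29 FPKM at 0.0025 µM. For INHBC the log2 fold change was 1.93 ± 0.32 (limma adjusted p = 0.0106), and no library overlapped. pth1a, parathyroid hormone, had 0.982, 1.52, 1.05 and 3.37 FPKM at 25 µM, against 0.543, 0.307, 0.304 and 0.255 FPKM at 0.0025 µM. pth1a changed by 1.89 ± 0.43 on the log2 scale (limma adjusted p = 0.045), and 9 of the 12 fits without 1 library lost the call.

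The counts for other tissues stand beside shares over all genes of 1.4% called higher and 0.624% called lower. Of 50 tested genes of intestinal absorption 3 were called lower. chia.3 (chromosome 11, 24013769 to 24016813), a chitinase, had 8.44, 4.26, 3.85 and 2.92 FPKM at 25 µM, against 11.3, 18.9, 15.6 and 11.7 FPKM at 0.0025 µM. For chia.3 the log2 fold change was −1.62 ± 0.28 (limma adjusted p = 0.0127). The amino acid transporter slc6a19b had 26.2, 25.8, 21.6 and 22.6 FPKM at 25 µM, against 38.9, 41.7, 40.4 and 36.9 FPKM at 0.0025 µM. slc6a19b changed by −0.72 ± 0.10 on the log2 scale (limma adjusted p = 0.00398). The peptide transporter slc15a1a had a log2 fold change of −0.92 ± 0.18. Neither chia.3 nor slc6a19b overlapped between doses, and the list median was −0.10. matn3b, a cartilage matrilin, rose with 41.4, 47.4, 43.5 and 47.1 FPKM at 25 µM, against 21.5, 15.2, 24 and 24.5 FPKM at 0.0025 µM. For matn3b the log2 fold change was 1.09 ± 0.15 (limma adjusted p = 0.00366). The lysyl oxidase loxa rose by 0.65 ± 0.14, and these were the 2 calls among 62 genes of collagens, cartilage and bone. The call of loxa was lost with the replicate block, with only the 2 doses in the fit and in 5 of the 12 fits without 1 library. Of 76 neuronal genes, gad2 (0.50) and slc32a1 (0.33), which make and load the transmitter GABA, and syn2b (0.51) of synaptic vesicles were called higher. The count was 0 without 25 µM replicate 2 or 0.0025 µM replicates 1 or 4, and 1 without 0.0025 µM replicate 2, with the replicate block or with only the 2 doses in the fit. Of 59 epidermal genes anxa1b (−1.13) and pfn1 (−0.43) were called lower, with a median of −0.32, but in the fits without 1 library these calls were lost 9 and 11 times of 12. rhcgb (0.78), the ammonium channel of ionocytes, and the sodium pump subunit atp1a1a.1 (0.27) were called higher beside pth1a among 54 ionocyte, kidney and mineral transport genes. That count was 0 without vehicle replicate 1, 25 µM replicates 2 or 3 or 0.0025 µM replicates 1, 2 or 4, 1 without 25 µM replicate 4 or 0.0025 µM replicate 3, with the replicate block or with only the 2 doses in the fit, and 5 without 25 µM replicate 1. Of 33 genes of iron and haem alas1 (0.68), which starts haem synthesis, was called higher, and the call was lost in 4 of the 12 fits without 1 library. In the 41 tested clock genes nfil3-6 (−1.23) was called lower although its libraries overlapped, and the call was lost in 9 of the 12 fits.

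Lists of cell division and acute stimulation gave 0 calls by limma. The 81 tested genes of the cell cycle and DNA replication had a median log2 fold change of −0.39 and only 7 values above 0. In all 18 had an unadjusted p below 0.05, all lower, limma-voom called 1 lower, and without 25 µM replicate 1 there were 6 lower calls. Set against vehicle under the cycle, all 81 were lower at 25 µM (median −0.81). Of these, 3 were called, where 0.629% of all genes were called lower. The low dose itself was below vehicle in 80 of the 81 and above in 1 (median −0.39), with 0 calls, while 46.8% of all genes lay above vehicle. The 47 immediate early genes had a median of 0.28, with 5 at an unadjusted p below 0.05 and 0 by limma-voom, and 3 were called without 25 µM replicate 1. Of 26 exocrine pancreas genes 9 had an unadjusted p below 0.05 (median −0.21), of 23 myelin genes 2 and of 18 light response genes 2, with 0 calls each by limma and by limma-voom. With only the 2 doses in the fit the larger lists also held fewer calls: 8 lower for hepatocyte genes, 2 lower for complement, 5 higher for the respiratory chain, 3 each for heat shock and hormones and neuropeptides, and 1 for beta-oxidation. Of the 383 called genes, 247 belonged to none of the 46 lists.

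**Figure D4:**
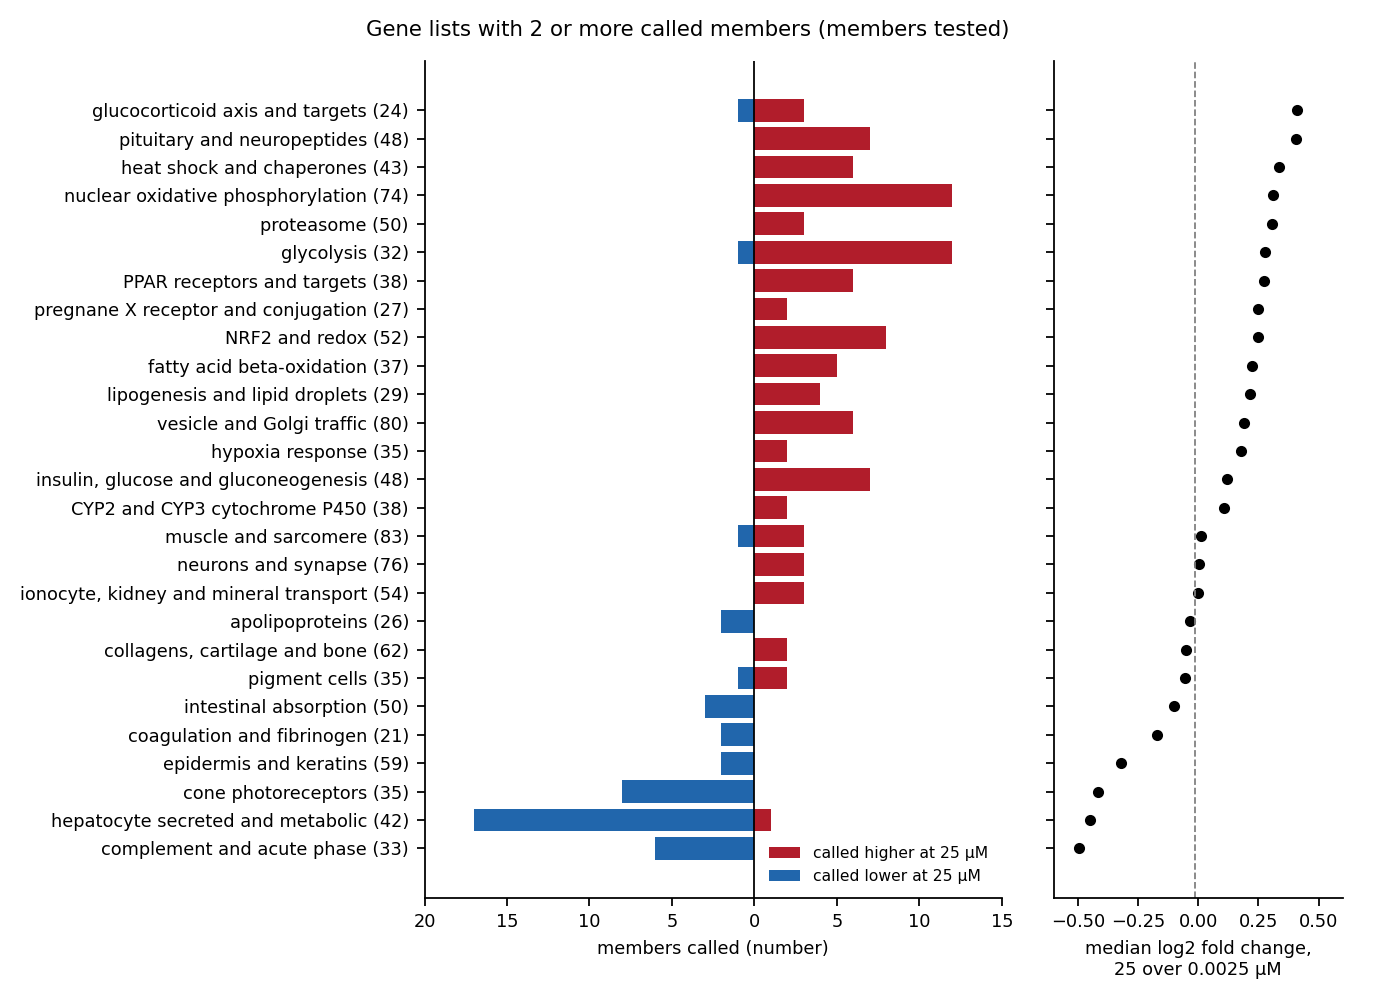
Left, number of members called higher (red, to the right) or lower (blue, to the left) at 25 against 0.0025 µM PFHxS under the light-dark cycle, for the lists with at least 2 called members; right, median log2 fold change of each list's tested members, with the median of all genes (−0.01) as a dashed line. The hepatocyte list has the most lower calls (17), and glycolysis and the respiratory chain have 12 higher calls each.

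Set beside vehicle, the low dose gave 0 calls among the same 18917 genes (0%) by limma and 0 by limma-voom, with 1029 genes (5.44%) at an unadjusted p below 0.05. The high dose against vehicle gave 328 calls (1.73%), 209 higher (1.1%) and 119 lower (0.629%). Leaving out 1 library gave between 70 calls, without vehicle replicate 3, and 764, without 25 µM replicate 1. It gave 77 without 25 µM replicate 3, 86 without vehicle replicate 1, 106 without 25 µM replicate 2, 149 without vehicle replicate 4, 175 without 25 µM replicate 4, and 183 and 199 without 0.0025 µM replicates 1 and 4. Both comparisons share libraries with 25 against 0.0025 µM, so their values are given side by side and are no independent evidence. arf4b averaged 3.77 ± 0.784, 4.3 ± 1.38 and 128 ± 62.1 FPKM at 0, 0.0025 and 25 µM (SD, n = 4 each), serpina1l 155 ± 49.1, 206 ± 14 and 52.1 ± 23.11 FPKM, and aldoaa 360 ± 35.7, 325 ± 47.8 and 905 ± 256 FPKM. In these 3 genes, given as examples, the 2 lower concentrations overlapped and 25 µM stood apart. All 383 called genes had the same direction against vehicle, but only 207 were called there. In 296 of the 383, all 4 libraries at 25 µM lay beyond all 8 other cycle libraries. The call itself selected for distance from the 0.0025 µM libraries, and the share over all genes was not counted, so this count is a description. abcd3a averaged 9.43, 6.4 and 16.1 FPKM at 0, 0.0025 and 25 µM. Its 0.0025 µM libraries all lay below vehicle, and 25 µM was not called against vehicle (limma adjusted p = 0.151). By list, 25 µM against vehicle gave 10 lower and 2 higher calls for hepatocyte genes, 4 lower for cones, 3 lower for complement, 9 higher for glycolysis, 3 higher and 1 lower for the respiratory chain, 5 higher for vesicle traffic, 2 higher for heat shock and 6 higher for hormones and neuropeptides. The low dose, though without calls, lay below vehicle in most members of several lists, while 46.8% of all genes lay above vehicle. It was below in 68 and above in 6 respiratory chain genes (median −0.19, all genes −0.02). The summed FPKM of that list overlapped, with 8564 to 11380 at 0.0025 µM and 10269 to 11575 in vehicle. The counts below and above were 64 and 16 for vesicle traffic and 43 and 7 for the proteasome. Hepatocyte genes went the other way, with 13 below and 29 above. Against vehicle, the 25 µM median was 0.11 for the respiratory chain and 0.14 for the proteasome, which had 0 calls. Beta-oxidation had 1 higher and 1 lower call and a median of 0.03, and the low dose was below vehicle in 32 and above in 5 of its genes. Mitochondrial ribosomal proteins and import translocases had 0 calls each (both medians 0.11). The low dose was below vehicle in 59 and above in 8 of the ribosomal proteins, and in 20 and 4 of the translocases. The citric acid cycle had 5 higher calls, and mitochondrial proteases, chaperones and translation factors had 7.

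The same 2 doses were compared in constant darkness, in libraries that share none with the light-dark cycle but were scaled in a separate table, so that photoperiod and table cannot be told apart. In darkness 3977 of 19058 genes (20.9%) were called, 2182 higher (11.4%) and 1795 lower (9.42%). Of the 383 genes called under the cycle 380 were tested in darkness, and 283 were called there in the same direction, which is 73.9% of the cycle calls and 7.1% of the dark calls. Of the others, 96 were not called there and 1, tat, was called in the opposite direction. The test of the difference itself, the change under the cycle minus the change in darkness, called 330 of 20145 genes (1.64%): 105 (0.521%) with the higher and 225 (1.12%) with the lower value under the cycle. With values scaled to total fragments the counts were 269 and 200, so the split of directions depends on the scaling. That scaling moved the median of all genes from −0.0116 to 0.0205. This count also moved with single libraries: among those of the cycle it was 864 without 25 µM replicate 4, 547 without 0.0025 µM replicate 3, 215 and 184 without 0.0025 µM replicates 1 and 4, and 177 and 197 without 25 µM replicates 1 and 2. Among the dark libraries it was 713, 173 and 185 without 25 µM replicates 1, 2 and 3, and 198 and 200 without 0.0025 µM replicates 2 and 3.

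The change of cyp2k6 was 3.68 under the cycle and 4.41 in darkness (log2), that of arf4b 4.76 and 3.67 and that of ahsg2 −2.82 and −3.04. None of these differences was called. Other genes differed by photoperiod. opn1mw2 in darkness had 11.6, 10, 9.48 and 6.28 FPKM at 25 µM, against 7.29, 10.1, 12.2 and 8.64 FPKM at 0.0025 µM, where the doses overlapped, and the difference between photoperiods was −1.85 ± 0.35 (limma adjusted p = 0.00836). Both dark groups were near the level that opn1mw2 had at 25 µM under the cycle, as far as values of the 2 separately scaled tables can be set side by side. Other cone opsins were called lower in darkness: opn1sw1 (−0.64), opn1mw1 (−0.63) and opn1sw2 (−0.52), while opn1lw2 (−0.42) was not called. In none of these was the difference between photoperiods called. tg in darkness had 1.32, 0.99, 1.35 and 1.07 FPKM at 25 µM, against 1.13, 0.968, 1.43 and 1.03 FPKM at 0.0025 µM, with a difference between photoperiods of −1.49 ± 0.29 (limma adjusted p = 0.0121). For tat the dark levels were 11, 12.8, 22.4 and 11.8 FPKM at 25 µM and 7.48, 5.65, 2.61 and 4.38 FPKM at 0.0025 µM, a rise of 1.55 ± 0.28, and the difference was −3.02 ± 0.44 (limma adjusted p = 0.00145). cyp1a changed by 0.10 in darkness, with a difference of −0.71 ± 0.13 (limma adjusted p = 0.00836), and gch2 by −0.48, with a difference of 1.79 ± 0.30 (limma adjusted p = 0.00334). uts1 changed by 0.91 under the cycle and 2.18 in darkness (difference −1.27 ± 0.32, limma adjusted p = 0.0459), and cpt1b by 0.56 and 1.63 (difference −1.07 ± 0.18, limma adjusted p = 0.00299).

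The counts by list stand beside shares over all genes of 11.4% called higher and 9.42% called lower in darkness, and 1.64% with a called difference. Of 82 tested cell cycle genes, 79 were called lower and 1 higher in darkness (median −1.43), against 0 under the cycle. In this list 15 genes had a called difference between photoperiods, all with the higher value under the cycle. Immediate early genes had 36 higher calls of 47 tested in darkness (median 1.23) and 8 called differences, all lower under the cycle. Pituitary hormones and neuropeptides had 26 higher calls and 1 lower of 48 tested in darkness (median 1.1) and 4 called differences. The hepatocyte list had 14 lower and 8 higher calls of 42 tested in darkness (median −0.26), and 8 of its genes had a called difference, all with the lower value under the cycle. Cone genes had 14 lower calls and 1 higher of 36 tested in darkness (median −0.32) and 1 called difference, lower under the cycle. Vesicle traffic had 25 higher and 4 lower calls of 80 tested in darkness and the respiratory chain 22 and 2 of 73. Neither had a gene with a called difference (limma, adjusted p below 0.05).

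**Figure D5:**
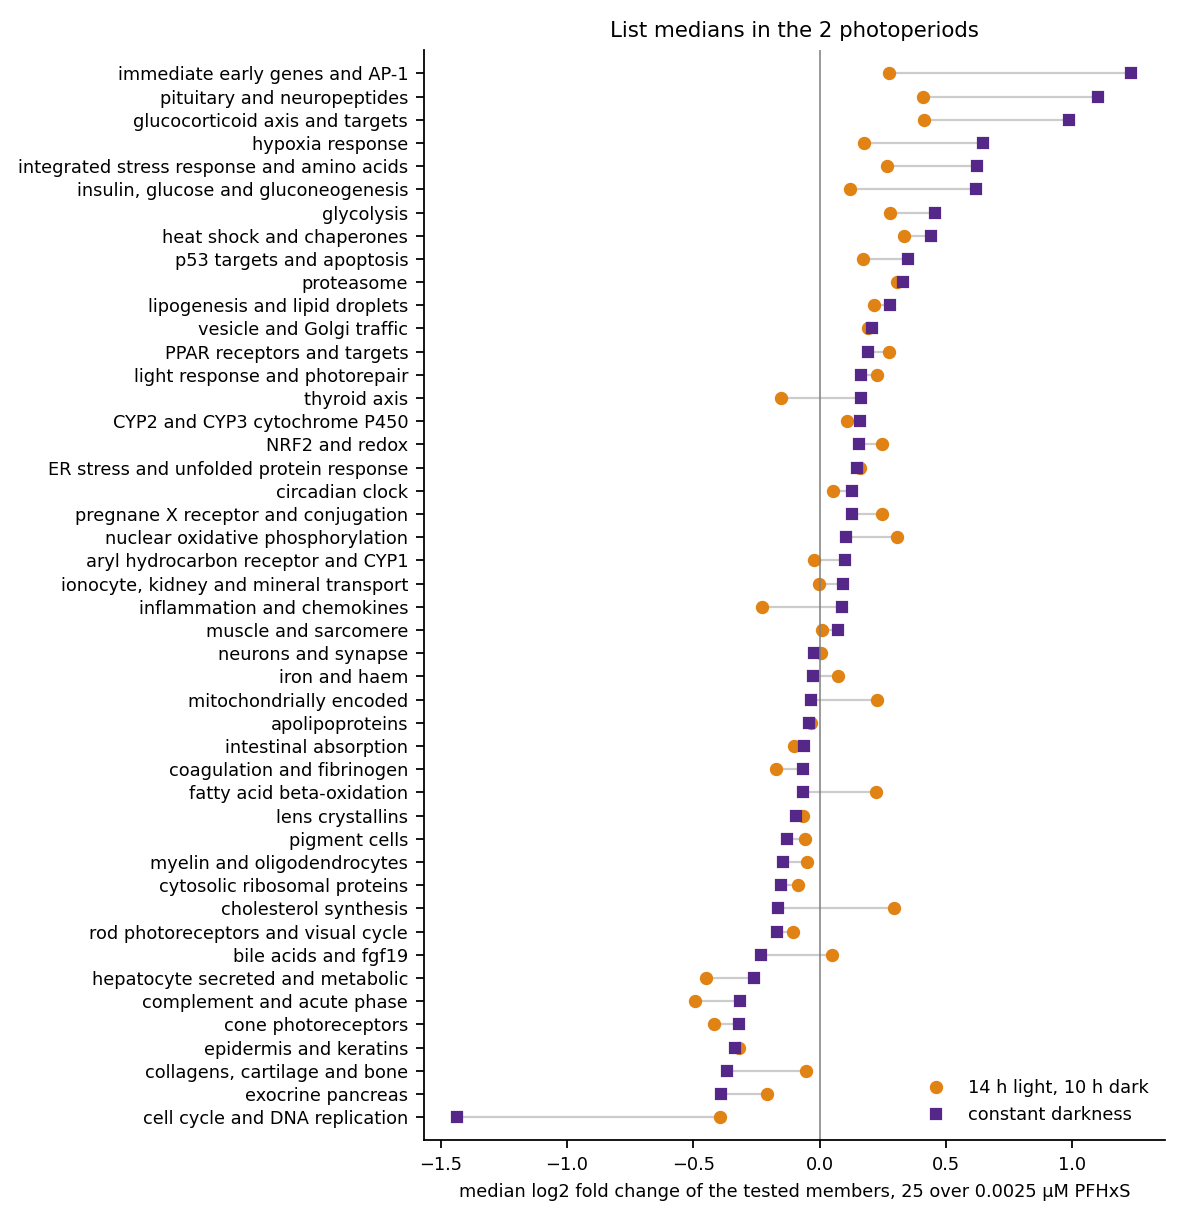
Median log2 fold change of 25 against 0.0025 µM PFHxS over the tested members of each of 46 gene lists, under the light-dark cycle (orange circles) and in constant darkness (purple squares). The cell cycle list lies at −0.39 under the cycle and −1.43 in darkness and the immediate early genes at 0.28 and 1.23, whereas the hepatocyte list lies at −0.45 and −0.26.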

How the data were processed

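Total RNA of whole zebrafish embryos was sequenced as paired reads, per the labels, and the submitters' processing notes name HISAT2 2.0.5 (alignment) and featureCounts 1.5.0-p3 (counting). For genome build, annotation and use of strand, nothing is given in the sources used here. The authors deposited FPKM values for 32520 genes in 2 tables, 1 for each photoperiod, each scaled on its own, to a size per library (9.23 to 19.2 M for the cycle) that differed from its recovered fragments in both directions. The depth per library was recovered from the FPKM values: FPKM times gene length came out as whole multiples of 1 step per library within a tolerance of 0.001, and cycle libraries held 10.1 to 18.5 M fragments, which limits precision for low genes. Each of the 24 value columns was assigned to a sample by its library name.

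Genes with at least 0.5 FPKM in at least 4 libraries of a fit were tested with limma 3.58.1 (trend, empirical Bayes, R 4.3.3) on log2(FPKM + 0.1), with 1 mean per dose over the 12 cycle libraries. The Benjamini-Hochberg adjustment ran over all genes tested. Fold changes are on this scale, ± SE, and understate the change of low genes. Because the tables hold FPKM, the count test that the plan allowed for was not used; limma-voom on recovered fragments was an alternative. The photoperiod difference was fitted on all 24 libraries. Same-numbered libraries of the 2 doses did not deviate together (correlations −0.115 to 0.118), so the replicate block is an alternative. The scripts were tested on simulated data. Summaries and figures used Python 3.11.15, pandas 2.3.3, SciPy 1.17.1 and Matplotlib 3.10.9.

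Genes were named by a rule: the 15 largest rises and 15 largest falls among called genes with a symbol that is no placeholder, a mean of at least 1 FPKM and doses that do not overlap, plus up to 4 genes of each list and leading genes of the other comparisons. The 46 lists hold 2051 genes matched by symbol. The members and lists were chosen with earlier results of these data known, and other called genes (hsp70.2, placeholder names, further list members) were picked after their values were seen. Results of a few genes that these rules also pick are not reported here. In symbols, the table writes _ for a colon. Alternatives were the pseudocount, the filter, the scaling, the samples in the fit, the block and each library left out.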

Additional observations from a re-analysis of the deposited data

Results flagged for a closer look

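In each group of 4 libraries, a library was marked when its gap to the nearest of the others took up most of the group's range; chance marks about 1 in 20 groups, and 18 of 258 groups of named genes were marked. At 25 µM the highest library stood apart for serpina1l (86.4 FPKM, the others 37.2 to 45.2), ponzr10 (1.32 FPKM, the others 0.465 to 0.57), rhcgb (25.5 FPKM, the others 17.7 to 18.9) and pfn1 (319 FPKM, the others 230 to 243). The lowest 25 µM library stood apart for fetub (145 FPKM, the others 245 to 251), g0s2 (8.88 FPKM, the others 13.4 to 14.3), guca1g (3.19 FPKM, the others 7.41 to 8.09), hspb9 (0.104 FPKM, the others 2.49 to 2.88) and txnl4a (13.8 FPKM, the others 17.1 to 17.7).

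At 0.0025 µM the highest library stood apart for INHBC (3.72 FPKM, the others 1.14 to 1.38), aldoaa (396 FPKM, the others 296 to 310) and atoh7 (2.30 FPKM, the others 1.29 to 1.41). The lowest library stood apart for abcd3a (3.59 FPKM, the others 7.12 to 7.58), anxa1b (48.0 FPKM, the others 94.0 to 98.2), cyp1a (16.6 FPKM, the others 18.4 to 18.8), dck (2.09 FPKM, the others 2.76 to 2.85), fetub (401 FPKM, the others 465 to 469) and ldhbb (18.5 FPKM, the others 20.4 to 20.7).

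The change of 25 against 0.0025 µM differed between photoperiods, by a test of the difference itself (limma, adjusted p below 0.05), for 30 named genes; values are the log2 fold change under the cycle minus that in darkness, and photoperiod and table cannot be told apart. It was lower under the cycle for pth1a (−4.33), hspb9 (−3.61), tat (−3.02), cyp24a1 (−2.80), which breaks down vitamin D, fbxo32 (−2.76), a ubiquitin ligase of muscle atrophy, psme4a (−2.62), opn1mw2 (−1.85), nfil3-6 (−1.76), crp3 (−1.63), hspb11 (−1.58), tg (−1.49) and cpt1b (−1.07). Smaller differences of the same sign were those of ucp2 (−0.88), hif1al (−0.81), crhbp (−0.79), itih3b (−0.76), cyp1a (−0.71), pfkma (−0.69), slc6a19b (−0.65) and pgam2 (−0.58). It was higher under the cycle for he1.1 (4.75), a hatching enzyme not tested under the cycle alone, aqp8b (2.70), TCF24 (2.11), dck (2.05), gch2 (1.79), atoh7 (1.77), plin6 (1.67), ugt1ab (0.92), tyrp1b (0.77) and snrnp40 (0.63).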

How the results depend on the processing

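The counts of 25 against 0.0025 µM stayed within 1.5 times of 265 higher and 118 lower genes in 6 of 8 settings that left out no library (225 to 331 higher, 91 to 142 lower). With the replicate number as a block they were 162 and 72, of which 157 and 62 were also called in the main analysis, and with only the 2 doses in the fit 135 and 57. Leaving out 1 library gave 119 to 463 higher and 41 to 192 lower. Only 1 of 4 replicate numbers correlated above 0.1, so the block rests on a shared number alone. For 25 µM against vehicle (328 genes) the block gave 162, a fit of the 2 groups alone 109, the other settings 223 to 419, and leaving out 1 library 70 to 764. For 0.0025 µM against vehicle all 8 settings gave 0, and leaving out 1 library 0 to 1. The photoperiod difference (330 genes) gave 137 with only its 4 groups, 245 to 469 otherwise, and 173 to 864 without 1 library. The causes of these shifts were not tested, beyond the fewer libraries in the smaller fits. Of 104 named genes called, 56 were called in all 8 settings and 50 also without each of 12 libraries in turn. Direction turned only for uncalled genes: ssna1 had a log2 fold change of −0.03, and 0.041 with limma-voom, and −0.16 to 0.079 without 1 library; aqp8b ranged from −0.41 to 0.26 and tuba8l from −0.25 to 0.066 without 1 library. Depth limits the genes near 0 FPKM, such as zgc_110286 at 0.0025 µM.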

Other observations

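Called genes outside the 46 lists were looked through after their values had been seen, so their grouping is a description. Several mitochondrial genes of other roles rose: the aspartate and glutamate carrier slc25a12 had a log2 fold change of 0.80 ± 0.10, the oxoglutarate carrier slc25a11 0.57 ± 0.08 and mpc2 of the pyruvate carrier 0.45 ± 0.08. It was 0.40 ± 0.09 for coq7 and 0.84 ± 0.14 for coq10b of coenzyme Q handling, and glrx5 of iron-sulphur cluster handling had 0.46 ± 0.11. The lipid genes aclyb, an ATP citrate lyase that supplies acetyl-CoA for fatty acid synthesis, and acsbg1, an acyl-CoA synthetase, rose by 1.01 ± 0.17 and 1.46 ± 0.20. Neuroendocrine genes outside the neuropeptide list rose as well, calca by 1.01 ± 0.18, neuropeptide B (npb) by 1.24 ± 0.23, cortistatin (cort) by 0.61 ± 0.12 and the secretogranin scg2b by 0.72 ± 0.16. 2 genes that code for secreted plasma proteins in vertebrates moved against the hepatocyte list: hpxa, a hemopexin that binds haem, had 1.81, 2.41, 2.08 and 1.3 FPKM at 25 µM, against 0.386, 0.987, 0.692 and 0.29 FPKM at 0.0025 µM. For hpxa the log2 fold change was 1.62 ± 0.36 (limma adjusted p = 0.0374). The paraoxonase pon1 had 8.71, 6.74, 7.75 and 5.43 FPKM at 25 µM, against 4.29, 3.59, 3.14 and 3.87 FPKM at 0.0025 µM. pon1 changed by 0.91 ± 0.15 on the log2 scale (limma adjusted p = 0.0111). On the lower side, the second MHC class II invariant chain cd74a had 1.71, 3.32, 3.62 and 2.95 FPKM at 25 µM, against 7.11, 6.27, 6.35 and 6.48 FPKM at 0.0025 µM. For cd74a the log2 fold change was −1.2 ± 0.19 (limma adjusted p = 0.00788). Likewise lower was pycard, an adaptor of the inflammasome, with a log2 fold change of −0.95 ± 0.19.

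In darkness the vehicle libraries did not share 1 level for arf4b, zgc_110286 and dpagt1, which are among the genes with the largest rises. arf4b had 23.3, 2.19, 19.2 and 27.22 FPKM in dark vehicle, 4.58, 3.86, 1.86 and 3.63 FPKM at 0.0025 µM and 44.4, 48.2, 37 and 44.1 FPKM at 25 µM in darkness. Vehicle replicate 2 was within the range of the 0.0025 µM libraries, and the other 3 lay between the 2 doses. For zgc_110286 vehicle replicate 2 was again the lowest, but it lay above the 0.0025 µM range. The levels were 9.95, 0.837, 8.01 and 11.2 FPKM in dark vehicle, 0.556, 0.332, 0 and 0.198 FPKM at 0.0025 µM and 16.7, 24.1, 12.1 and 16.9 FPKM at 25 µM. dpagt1 had 20.5, 13.3, 23.7 and 26.5 FPKM in dark vehicle, 12.4, 15, 11.3 and 17.5 FPKM at 0.0025 µM and 31, 42.2, 33.5 and 33.5 FPKM at 25 µM. For sec22ba, in contrast, the dark vehicle and 0.0025 µM libraries overlapped. It had 5.45, 4.0, 4.94 and 5.85 FPKM in dark vehicle, 5.96, 4.91, 4.64 and 5.26 FPKM at 0.0025 µM and 10.4, 11.8, 12.2 and 11.2 FPKM at 25 µM. Under the light-dark cycle, vehicle and 0.0025 µM libraries overlapped for arf4b, with 3.55, 2.86, 4.73 and 3.95 FPKM in vehicle.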
